A study of Mus musculus with 10 samples.

Results

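The endocannabinoid system was followed through 8 genes, all found by symbol among the 18453 gene rows of the count tables: the cannabinoid receptor gene Cnr1, the diacylglycerol lipase genes Dagla and Daglb, the hydrolase genes Mgll, Abhd6 and Abhd12, and Napepld and Faah, the genes of N-acylethanolamine synthesis and breakdown. Endocannabinoids are lipid messengers that a neuron makes on demand, chiefly 2-arachidonoylglycerol (2-AG) and anandamide, an N-acylethanolamine. In the hippocampus 2-AG leaves the postsynaptic cell, reaches CB1 receptors on the presynaptic terminal and lowers transmitter release. CB1 is densest on the terminals of cholecystokinin-containing inhibitory cells and is also present on glutamatergic terminals.

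RNA came from CA3, the hippocampal field that receives the mossy fibres, of C57BL/6J mice given adeno-associated virus (AAV) into CA3 of both hemispheres. For 5 libraries the vector encoded an shRNA against Mef2c, a transcription factor of the MEF2 family, with CA3 PyNs named as its target cells; for the other 5 it encoded a scrambled shRNA, so both groups shared the surgery and the vector. The promoter, the age of the mice and the time after injection are not given in the labels. The labels give male for each library, whereas the injection protocol speaks of either sex, and they do not tie libraries to animals, so p-values reflect only how much these libraries vary, which may be technical. A library held between 14701928 and 17798090 counts, and each knockdown library was deeper than each scramble library. Between 518 and 5816 of these counts fell on any 1 of the 8 genes. Levels are given as CPM, the count scaled by the normalized library size. None of 8 CA3 pyramidal markers was at 0 in any library, and their summed level was 679.7 to 735.9 CPM in the scramble and 650.3 to 744.9 CPM in the knockdown libraries. Markers of neighbouring fields were present too: 6 dentate granule cell markers summed to 477.3 to 623.2 CPM and 450.2 to 703.4 CPM, and 5 CA1 markers to 640.4 to 723.4 CPM and 531.9 to 653.9 CPM. Choroid plexus markers (5 genes) varied widely in both groups, from 67.96 to 1967 CPM and from 45.62 to 2744 CPM in sum. By mean centred log2 level, 8 interferon-response markers set knockdown libraries 2, 3 and 4 apart (2.07, 1.70 and 1.95, against at most 0.48 in any other library). Fits without these 3 libraries were therefore run. Of the 8, Rtp4 passed in edgeR (adjusted p = 0.0351) and the others, with log2 fold changes of 1.69 to 2.38, did not. All 8 were above 0 (median 1.85), 4 had an unadjusted p under 0.05 in edgeR and 3 passed in DESeq2. Over all 14393 genes tested, 4.66% passed as higher in edgeR and 4327 had an unadjusted p under 0.05. DESeq2 called 1167 of all genes higher. The mean centred log2 level of 8 cortical markers was highest in scramble library 4 (0.40) and the library labelled knockdown 5 (0.51), against at most 0.13 elsewhere. These markers summed to 514.4 to 651.6 CPM in the scramble and 461.8 to 646.8 CPM in the knockdown libraries.

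Mef2c, the targeted gene (ENSMUSG00000005583, chromosome 13), stood at 166.3, 197.7, 175.8, 312.0 and 175.2 CPM in scramble libraries 1 to 5. Its knockdown values, libraries 1 to 5, were 110.5, 130.8, 121.1, 163.2 and 286.1 CPM. The first 4 lay below every scramble library, whereas the library labelled knockdown 5 lay above 4 of them. By edgeR's quasi-likelihood test Mef2c differed by -0.34 on the log2 scale (SE 0.30, adjusted p = 0.489). Permuting the group labels over all 252 assignments gave an exact two-sided p of 0.246. Left out singly, the library labelled knockdown 5 moved the value to -0.64 and scramble library 4 to -0.14 (edgeR adjusted p = 0.0877 and 0.799). These are the libraries with the highest cortical marker levels, and with that level as a covariate Mef2c was -0.21 with a smaller SE of 0.080 (edgeR adjusted p = 0.0762). Mef2c did not pass in any of these fits, and results are also given without the library labelled knockdown 5 where that changes a call.

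Among the 8 genes, Cnr1 fell and Abhd12 rose in the knockdown libraries (edgeR adjusted p = 0.013 and 0.0179), and the other 6 did not pass an adjusted p of 0.05. Of all 14393 genes tested, 12.3% passed, 7.61% lower and 4.66% higher, so a list of 8 genes at that share would hold about 1. The median log2 fold change of the 8 genes was 0.12, against 0.02 over all tested genes. Of the 8, 6 were above 0, as were 52.8% of all tested genes, and 1 of the 6, Abhd6, stood at 0.005 (SE 0.072). The plot of CPM by library shows the 8 genes side by side.

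**Figure D1:**
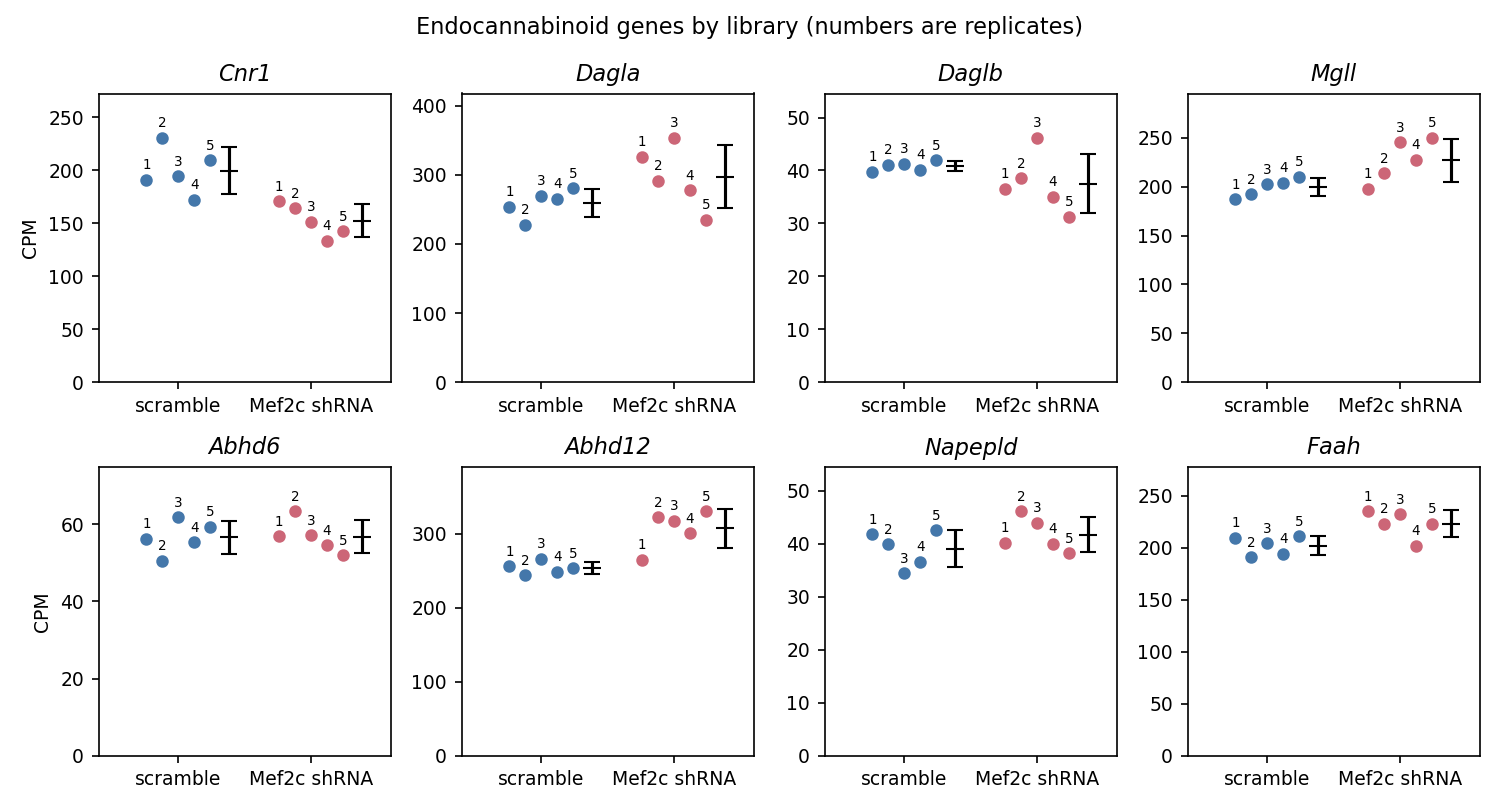
CPM (vertical axes, each starting at 0) of the 8 genes in the 5 scramble (blue) and 5 Mef2c shRNA (red) libraries; points carry replicate numbers and the black marks are the mean ± SD of a group. Of the 8 genes only Cnr1 has groups that do not overlap (knockdown 133.6 to 170.9 CPM, scramble 172.2 to 231.0 CPM). Such separation downwards was seen in 6.04% of tested genes. For Abhd12, Mgll and Faah alike, 4 of 5 knockdown libraries lie above all scramble libraries, and of these genes Abhd12 passed the edgeR test.

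Cnr1 encodes CB1, the receptor through which 2-AG and anandamide act on nerve terminals. It lies on chromosome 4 (33924593 to 33948831, plus strand, GRCm38, ENSMUSG00000044288), and its longest annotated transcript has 5807 bases. Since a MEF2 family gene was targeted, the start regions in the RefSeq table (GRCm38.p6; 250 bases before and 50 after each start) were searched on both strands for the MEF2 consensus. The table holds 10 such windows for 6 of the 8 genes, all except Dagla and Abhd12. The consensus was in 0 of the 10, and in 3.19% of all 32851 windows. At that share 0 of 10 is a common outcome, so the search says little about these genes. The 250 bases before the most upstream Cnr1 start (chr4:33924014-33924263, plus strand) are shown because they belong to the window with the highest GC content of the 10. They have 79.2% GC and 36 CG pairs, and the whole window 76.3% GC and 40 CG pairs, against medians of 52.7% and 7 over all windows. Capitals mark the 5 matches to GGGCGG, read as CCGCCC on the other strand, a sequence that 35.7% of all windows hold.
Cnr1 upstream: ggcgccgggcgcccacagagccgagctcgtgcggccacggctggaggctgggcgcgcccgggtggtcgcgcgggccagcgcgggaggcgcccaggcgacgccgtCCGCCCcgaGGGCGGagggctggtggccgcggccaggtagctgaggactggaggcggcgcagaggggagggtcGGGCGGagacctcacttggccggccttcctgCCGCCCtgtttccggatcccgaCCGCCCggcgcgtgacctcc
The other Cnr1 windows, at 69.0% and 46.3% GC, hold 0 matches to GGGCGG. A match is a string of letters and does not show that a factor binds there.

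In scramble libraries 1 to 5, Cnr1 stood at 191.1, 231.0, 194.5, 172.2 and 209.6 CPM. The knockdown libraries, 1 to 5, had 170.9, 164.2, 151.5, 133.6 and 142.3 CPM. All 5 knockdown libraries lay below all 5 scramble libraries, by a narrow margin between knockdown 1 and scramble 4. Such separation downwards was seen in 6.04% of tested genes. The mean fell from 199.7 ± 22.0 to 152.5 ± 15.3 CPM (SD, n = 5), to 0.764 of the scramble level (log2 fold change -0.39 with SE 0.086; adjusted p = 0.013 by edgeR). In bulk tissue, fewer cells that express a gene and less RNA per cell cannot be told apart.

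The fall in Cnr1 passed the edgeR test in each of the 10 fits that left out a single library, with log2 fold changes between -0.44 and -0.33, and without the library labelled knockdown 5 it was -0.36 (edgeR adjusted p = 0.0187; 7.21% of all genes were called lower in that fit). Once transcript length and GC composition were corrected for, it did not pass (-0.21 with SE 0.072; adjusted p = 0.153 by edgeR, and 0.000787 to 0.193 over all 25 alternatives). In these libraries the called genes that fell had long transcripts (median 7484 bases) and those that rose short ones (median 1978 bases). The other fits in which it did not pass, one without knockdown libraries 2, 3 and 4 (-0.36) and one with a microglia marker score as a covariate (-0.38), moved its size little.

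Markers listed for the inhibitory cells that carry most CB1, which need not be confined to those cells, were read beside Cnr1. Of 6 markers of cholecystokinin and related interneurons, 0 passed the edgeR test, 0 had an unadjusted p under 0.05 and 0 passed in DESeq2, with summed levels of 302.4 to 346.4 CPM in the scramble and 302.4 to 448.6 CPM in the knockdown libraries. Their median log2 fold change was 0.17, and -0.03 after the length and GC correction. In the corrected fit 1 of the 6 had an unadjusted p under 0.05, as had 2523 of all 14381 genes. Cholecystokinin itself (Cck) averaged 219.4 and 241.1 CPM, and its difference turned from 0.14 to -0.15 on the log2 scale with the correction (edgeR adjusted p = 0.293 and 0.165). Cck made up most of the summed level. In the scramble libraries Cxcl14 averaged 79.9 CPM, and Vip, Htr3a, Slc17a8 and Sncg 11.7, 9.60, 5.07 and 1.86 CPM. The sum therefore says little about the rarer markers, and bulk RNA does not tell which cells the Cck counts came from. Of 6 general GABAergic markers, Gad2, which encodes a GABA-synthesizing enzyme, fell from 136.1 ± 11.4 to 108.7 ± 5.75 CPM (-0.33 on the log2 scale with SE 0.066; adjusted p = 0.00925 by edgeR). The other 5 did not pass, 3 of the 6 were above 0 and the median was 0.005. Gad2 was singled out after its values were seen, and it too lost its call after the length and GC correction (-0.15, edgeR adjusted p = 0.183). The summed GABAergic level was 647.2 to 713.2 CPM in the scramble and 574.6 to 746.4 CPM in the knockdown libraries. The GABAergic marker score as a covariate was an alternative added once the values were known. With it Cnr1 was -0.41 on the log2 scale (SE 0.084, adjusted p = 0.00422 by edgeR). That fit called 1854 genes lower, against 1095 in the main fit. The cholecystokinin interneuron and CA3 scores, also added afterwards, gave Cnr1 -0.38 and -0.35 (edgeR adjusted p = 0.0202 and 0.0374). The part of cell content in the Cnr1 result was not tested beyond these values.

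The diacylglycerol lipases make 2-AG from diacylglycerol, and Dagla encodes the enzyme on which retrograde 2-AG signalling in the adult brain chiefly depends. Dagla lies on chromosome 19 (10245265 to 10304877, minus strand, ENSMUSG00000035735). It stood at 254.2, 227.8, 269.7, 265.5 and 281.0 CPM in scramble libraries 1 to 5, and at 326.2, 291.7, 354.0, 277.9 and 235.2 CPM in knockdown libraries 1 to 5. Knockdown libraries 1, 2 and 3 lay above all scramble libraries, knockdown 4 lay within their range, and the library labelled knockdown 5 stood near their lower end. The means were 259.6 ± 20.2 and 297.0 ± 45.6 CPM (SD, n = 5), a log2 fold change of 0.19 (SE 0.097) that did not pass the edgeR test (adjusted p = 0.196, 95% interval -0.015 to 0.403). Without the library labelled knockdown 5 it was 0.27 (SE 0.080) and passed (edgeR adjusted p = 0.0411; 0.0411 to 0.963 over the 25 alternatives), in a fit that called 5.3% of all genes higher. A microglia marker covariate brought Dagla to 0.01 (SE 0.124; adjusted p = 0.963 by edgeR), and leaving out knockdown libraries 2, 3 and 4 brought it to 0.11 (adjusted p = 0.675 by edgeR).

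Daglb, the related lipase that is prominent in microglia and other immune cells, lies on chromosome 5 (143464584 to 143505942, plus strand, ENSMUSG00000039206). It was the steadiest of the 8 genes among the scramble libraries, at 39.7, 41.1, 41.3, 40.1 and 41.9 CPM, a coefficient of variation of 2.19%. The knockdown libraries, in the same order, held 36.5, 38.6, 46.2, 35.1 and 31.3 CPM, a coefficient of variation of 14.8%. All knockdown libraries except number 3 lay below every scramble library. The log2 fold change of -0.12 (SE 0.090) did not pass (edgeR adjusted p = 0.385). It was -0.21 without knockdown library 3, -0.06 without the library labelled knockdown 5, -0.27 without libraries 2, 3 and 4 and -0.34 with the microglia score, and passed in none of these fits. The exons of Daglb overlap those of Rac1, on the opposite strand, over 2309 of 9567 merged exonic bases, and strandedness of the counting is not given in the sources used here. Rac1 stood at 254.4 ± 7.03 and 272.9 ± 13.9 CPM in the 2 groups (SD, n = 5), and if strand was not used, reads of the 2 genes in the shared exons cannot be told apart.

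The 2 lipases moved together from library to library. Both were highest in knockdown 3, and in that group both were lowest in the library labelled knockdown 5. After group means were taken off, their Pearson correlation of log2 CPM over the 10 libraries was 0.80, the highest among the 28 pairs of the 8 genes, and is given as a description. Their ratio is free of library scaling. Per transcript length, Dagla exceeded Daglb 5.54, 4.80, 5.65, 5.73 and 5.80 times in scramble libraries 1 to 5, and 7.73, 6.55, 6.63, 6.86 and 6.51 times in knockdown libraries 1 to 5. The ratio was higher in each knockdown library than in any scramble library, the library labelled knockdown 5 included, with means of 5.50 ± 0.405 and 6.86 ± 0.507 (SD, n = 5). This ratio was chosen after the values of both genes were seen and was not tested. How many other pairs of genes separate as fully was not counted. The overlap of Daglb exons with Rac1 limits the ratio as well. After the length and GC correction the log2 fold changes were 0.26 (SE 0.088) for Dagla and -0.04 (SE 0.082) for Daglb, neither of which passed.

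**Figure D2:**
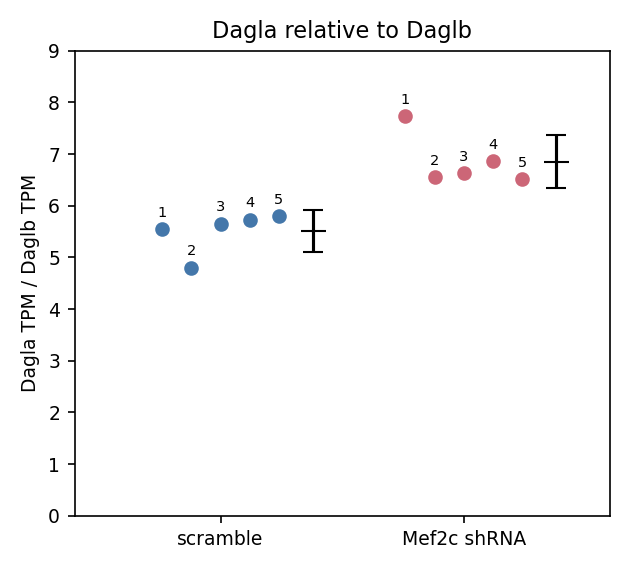
Ratio of Dagla to Daglb in TPM, the length-scaled level (vertical axis, from 0) in each scramble (blue) and Mef2c shRNA (red) library; points carry replicate numbers and the black marks are the group mean ± SD. The scramble libraries lie between 4.80 and 5.80 and the knockdown libraries between 6.51 and 7.73.

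Monoacylglycerol lipase, the product of Mgll, is the main enzyme that hydrolyses 2-AG in the brain and is found in presynaptic terminals and astrocytes. Mgll lies on chromosome 6 (88724412 to 88828360, plus strand, ENSMUSG00000033174). It stood at 187.4, 192.1, 202.6, 204.0 and 210.2 CPM in scramble libraries 1 to 5, and at 197.9, 213.9, 245.6, 227.4 and 250.3 CPM in knockdown libraries 1 to 5. All knockdown libraries except number 1 lay above every scramble library. The log2 fold change of 0.19 (SE 0.070) had an unadjusted p of 0.0173 and did not pass the edgeR test over all genes (adjusted p = 0.0893). It passed without knockdown library 1 (0.24, edgeR adjusted p = 0.0164), with the cortical marker score as a covariate (0.21, edgeR adjusted p = 0.0359) and with the GABAergic score (0.20, edgeR adjusted p = 0.0378), and its adjusted p ranged up to 0.388 over the 25 alternatives. These fits called more genes higher across the whole table, 10.5% without knockdown library 1, 8.25% with the cortical score and 10.4% with the GABAergic score.

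Abhd12, a serine hydrolase of lysophosphatidylserine that also hydrolyses 2-AG and is strongly expressed in microglia, was the gene of the 8 that rose. It lies on chromosome 2 (150832493 to 150904741, minus strand, ENSMUSG00000032046), and its longest transcript has 1999 bases. It stood at 256.2, 243.7, 266.6, 249.1 and 254.0 CPM in scramble libraries 1 to 5, and at 265.1, 322.8, 318.0, 300.8 and 330.9 CPM in knockdown libraries 1 to 5. Knockdown library 1 lay within the scramble range and the other 4 above it. The mean rose from 253.9 ± 8.56 to 307.5 ± 26.1 CPM (SD, n = 5), or 1.21-fold (log2 fold change 0.28 with SE 0.065; adjusted p = 0.0179 by edgeR). Leaving out the library labelled knockdown 5 gave 0.25 (edgeR adjusted p = 0.0233).

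This rise sat close to the threshold. It did not pass without scramble library 2, 4 or 5 or without knockdown library 2 (log2 fold changes 0.26 to 0.28, edgeR adjusted p = 0.0549, 0.0522, 0.0516 and 0.0515 in that order; 0.000719 to 0.26 over the 25 alternatives). After the length and GC correction it was 0.11 (SE 0.049, edgeR adjusted p = 0.26). Of 9 microglia markers, 4 rose (Tmem119, Csf1r, Aif1 and C1qa), against 4.66% of all genes tested. After the length and GC correction 0 passed in edgeR and 6 had an unadjusted p under 0.05, as had 2523 of all 14381 genes. On the uncorrected counts 6 passed in DESeq2, which called 1167 of all genes higher. None of the 9 markers was at 0 in any library. Their list summed to 291.5 to 396.6 CPM in the scramble and 335.9 to 655.7 CPM in the knockdown libraries. The mean centred log2 level of these markers was highest in knockdown libraries 2, 3 and 4 (0.46, 0.77 and 0.47), those that also had the highest interferon marker levels. It was -0.03 in number 1, -0.23 in the library labelled knockdown 5, where Abhd12 was highest, and between -0.41 and 0.04 across the scramble libraries. With that level as a covariate the Abhd12 log2 fold change was 0.23 (edgeR adjusted p = 0.201), and without those 3 libraries it was 0.23 (edgeR adjusted p = 0.246). The part of microglia or interferon genes in the Abhd12 result was not tested beyond these values.

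Abhd6, which encodes a postsynaptic hydrolase of 2-AG, lies on chromosome 14 (8002902 to 8056763, plus strand, ENSMUSG00000025277) and hardly differed between the group means. It stood between 50.5 and 61.8 CPM in the scramble libraries and between 52.1 and 63.4 CPM in the knockdown libraries, with means of 56.7 ± 4.28 and 56.8 ± 4.23 CPM (SD, n = 5). The difference was 0.00 on the log2 scale (SE 0.072, edgeR adjusted p = 0.973), and its 95% interval, -0.15 to 0.16, leaves room for changes of that size. The ratio of Abhd12 to Abhd6 per transcript length was 4.77 to 5.37 in the scramble and 5.19 to 7.08 in the knockdown libraries, with 1 knockdown library inside the scramble range.

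Napepld and Faah act on the anandamide branch. Napepld, whose phospholipase D releases N-acylethanolamines from membrane precursors, lies on chromosome 5 (21662901 to 21701396, minus strand, ENSMUSG00000044968). It stood between 34.5 and 42.6 CPM in the scramble and between 38.2 and 46.2 CPM in the knockdown libraries, and its log2 fold change of 0.09 (SE 0.079) did not pass (edgeR adjusted p = 0.452). Faah, the fatty acid amide hydrolase that breaks down anandamide, lies on chromosome 4 (115967145 to 116017926, minus strand, ENSMUSG00000034171). It stood at 209.9, 190.9, 204.7, 194.4 and 211.0 CPM in scramble libraries 1 to 5, and at 235.4, 223.4, 232.2, 202.2 and 223.2 CPM in knockdown libraries 1 to 5. All knockdown libraries except number 4 lay above every scramble library. Faah differed by 0.14 on the log2 scale (SE 0.059, unadjusted p = 0.0281, edgeR adjusted p = 0.117).

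After the length and GC correction Faah was the 1 gene of the 8 that passed, with a log2 fold change of 0.24 (SE 0.054, edgeR adjusted p = 0.0422; over the 25 alternatives 0.0422 to 0.338). In that fit 1.65% of all genes tested passed, and 0.702% passed as higher. The plot of log2 fold changes sets both fits side by side. Cnr1 and Daglb stayed below 0 and Dagla, Mgll, Abhd12, Napepld and Faah above 0 in both, while Abhd6 moved from 0.00 to -0.07.

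**Figure D3:**
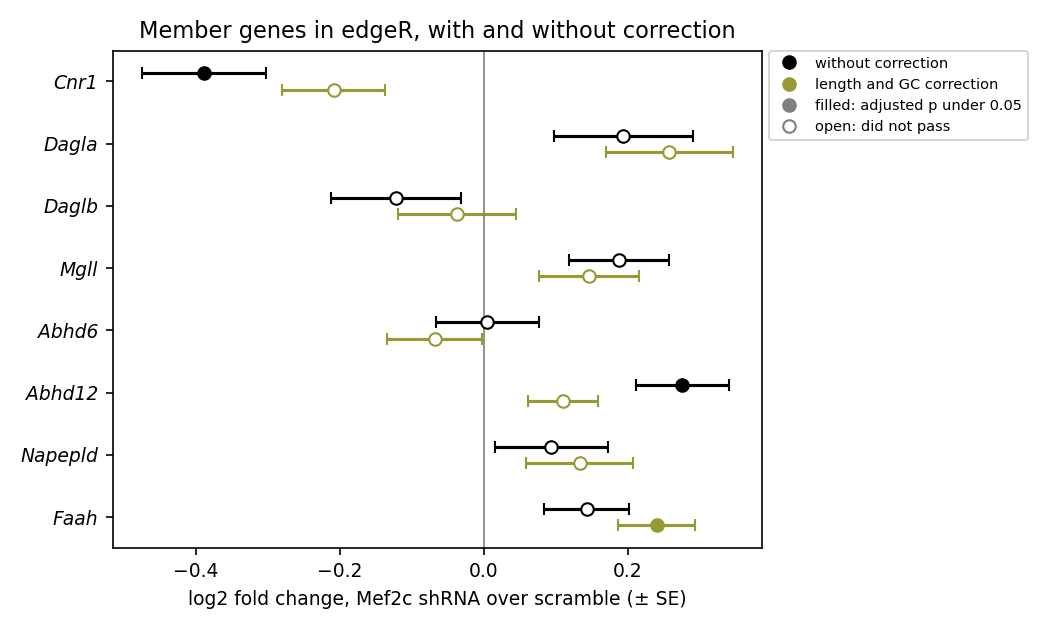
Log2 fold change of Mef2c shRNA over scramble (horizontal axis, ± SE) for the 8 genes in edgeR, without correction (black) and with transcript length and GC composition corrected for (olive); filled points had an adjusted p under 0.05. Cnr1 (-0.39) and Abhd12 (0.28) are filled without the correction and Faah (0.24) with it.

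Levels of different genes were compared per transcript length, as TPM (counts divided by the length of the longest transcript and scaled to the same sum in each library). In the scramble libraries Abhd12 was highest at 413.6 ± 10.8 TPM, followed by Mgll at 162.6 ± 8.11, Dagla at 150.1 ± 11.4, Faah at 118.9 ± 4.60, Cnr1 at 112.0 ± 12.8, Abhd6 at 82.9 ± 5.79, Napepld at 32.2 ± 2.87 and Daglb at 27.3 ± 0.701 TPM (SD, n = 5). Mgll and Dagla overlapped between libraries, as did Faah and Cnr1, so neither pair can be ordered. The other neighbours did not overlap, but the lowest Napepld and the highest Daglb library both round to 28.1 TPM. With merged exons in place of the longest transcript, 26 of 28 pairs kept their order, and Dagla (189 TPM) then stood above Mgll (164 TPM) and Cnr1 (130 TPM) above Faah (108 TPM). All 28 pairs had the same order by their means in the knockdown libraries, where Cnr1 averaged 80.3 ± 10.04 TPM, close to Abhd6 at 78.0 ± 7.13 TPM.

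**Figure D4:**
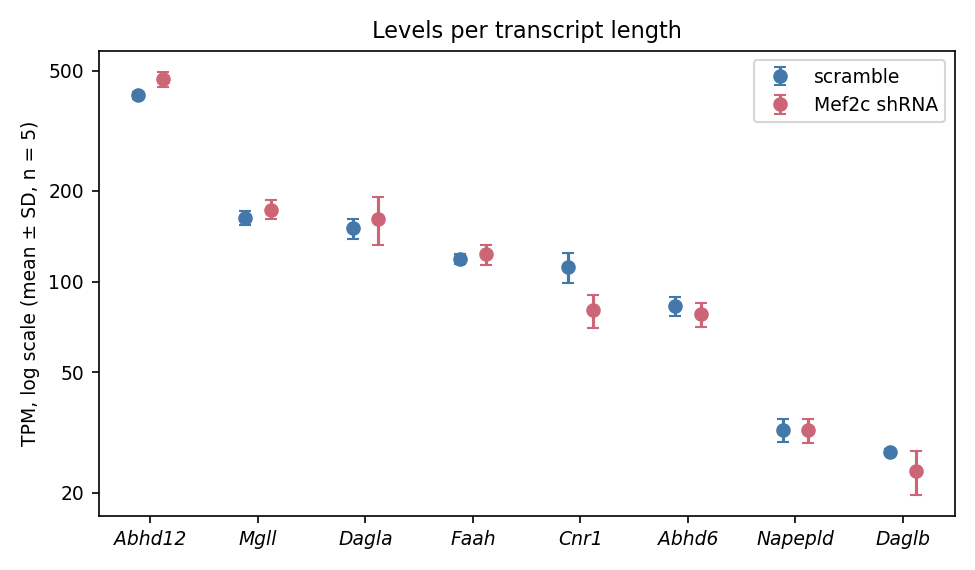
TPM (vertical axis, log scale) of the 8 genes as mean ± SD over 5 scramble (blue) and 5 Mef2c shRNA (red) libraries, in order of the scramble mean. Abhd12 stands apart at 413.6 TPM in the scramble libraries, and Daglb and Napepld are lowest. Cnr1 averages 112.0 TPM in the scramble and 80.3 TPM in the knockdown libraries. TPM is scaled differently from the levels tested in edgeR, by which Cnr1 stood at 0.764 of the scramble level.

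The other genes of the pathway were read from a list of 44 by role, of which 38 were tested; 1 rose and 6 fell, 18.4% in all against 12.3% of tested genes, and the median log2 fold change was -0.06. Of 2 CB1 partner proteins, Sgip1, a brake on CB1 internalization, fell by 0.23 on the log2 scale, from 182.5 ± 15.5 to 155.6 ± 7.69 CPM (SE 0.066, adjusted p = 0.0392 by edgeR). Of 10 genes that supply diacylglycerol downstream of glutamate and acetylcholine, 2 fell, against 7.61% of all genes tested. Grm5, the metabotropic glutamate receptor that triggers 2-AG production, fell from 302.0 ± 32.1 to 222.8 ± 15.02 CPM (-0.44, SE 0.076, edgeR adjusted p = 0.00393). Plcb1, the phospholipase C beta that makes diacylglycerol behind such receptors, fell from 256.0 ± 16.5 to 202.7 ± 20.6 CPM (-0.34, SE 0.075, edgeR adjusted p = 0.0133). In Grm5 and Plcb1 all knockdown libraries lay below all scramble libraries, as they did in 6.04% of all tested genes.

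Of 9 CB1 effectors, 3 fell and 1 rose, against 7.61% of all genes tested called lower and 4.66% called higher. Kcnj6, a subunit of the G protein-gated potassium channel, fell from 45.4 ± 2.76 to 25.2 ± 9.01 CPM (-0.85 on the log2 scale with SE 0.203, adjusted p = 0.0261 by edgeR). Its groups did not overlap, a separation downwards that 6.04% of tested genes had. The N-type calcium channel gene Cacna1b fell by 0.36 and the adenylyl cyclase gene Adcy1 by 0.47 on the log2 scale (edgeR adjusted p = 0.0235 and 0.0182), and Gnai2, an inhibitory G protein subunit common in microglia, rose by 0.27 (edgeR adjusted p = 0.0201). After the length and GC correction none of these 7 passed. Kcnj6 kept its size (-0.85, SE 0.193, edgeR adjusted p = 0.0611), whereas Grm5 (-0.15), Plcb1 (-0.08), Sgip1 (-0.04), Cacna1b (-0.08), Adcy1 (-0.13) and Gnai2 (0.11) moved towards 0. The muscarinic receptor gene Chrm1, chosen after its values were seen, then passed at 0.24 (edgeR adjusted p = 0.0499), from 0.10 without the correction. It was the 1 gene of the 38 to pass in that fit, which called 1.65% of all genes tested.

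**Figure D5:**
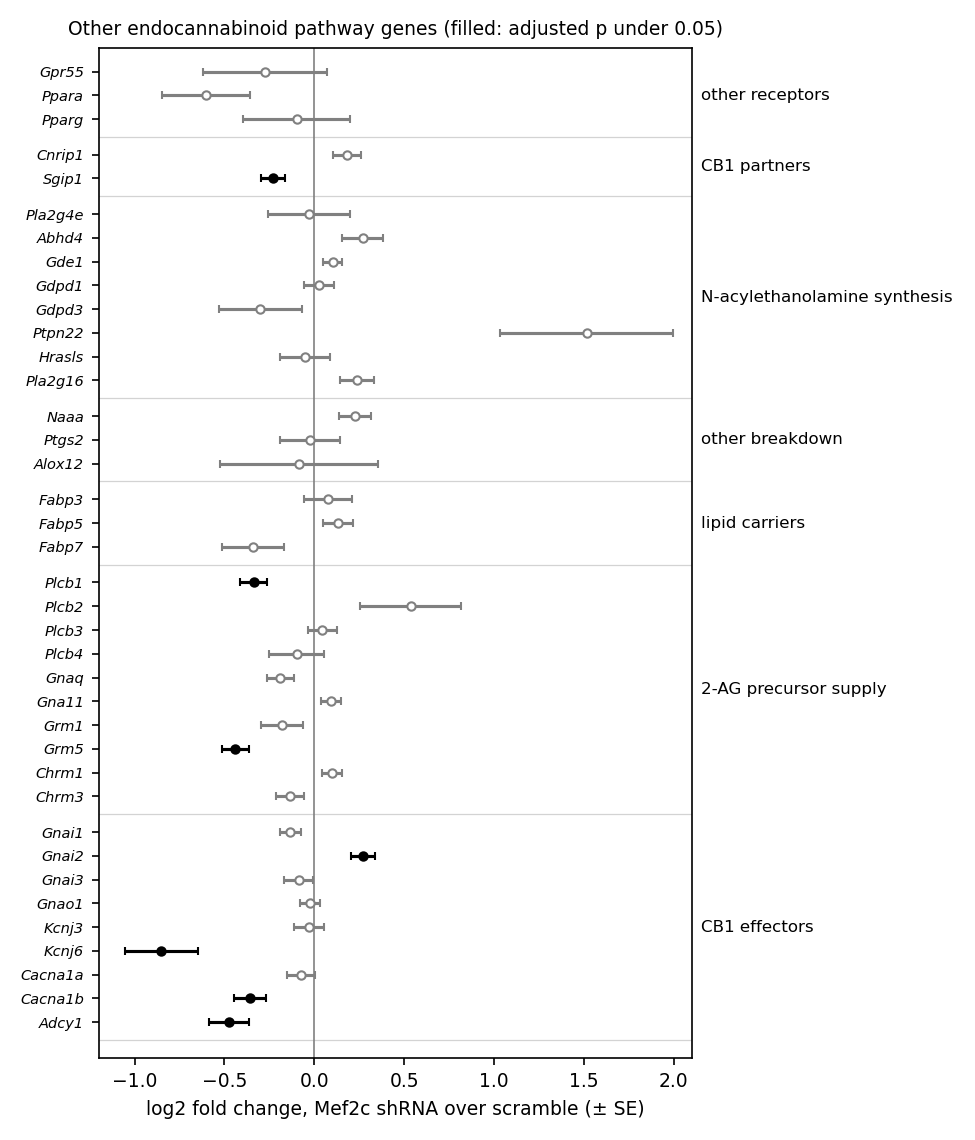
Log2 fold change of Mef2c shRNA over scramble (horizontal axis, ± SE) for the 38 tested genes of the wider pathway, grouped by role; filled points had an edgeR adjusted p under 0.05. The 6 filled points below 0 are Sgip1, Plcb1, Grm5, Kcnj6, Cacna1b and Adcy1, and Gnai2 is the filled point above 0.

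In the remaining 4 groups 0 of 17 genes passed the edgeR test, also after the correction. In each of these fits 5 had an unadjusted p under 0.05. Over all genes 4327 of 14393 had one without the correction and 2523 of 14381 with it. In DESeq2 1 of the 17 passed, Ptpn22, singled out after its values were seen, where 2555 of all genes passed. Of 8 tested genes of N-acylethanolamine synthesis, the 2 highest were Gde1, a phosphodiesterase (140.6 and 151.0 CPM), and Abhd4, a hydrolase of membrane precursors (60.4 and 72.9 CPM). Of 3 genes of other breakdown routes the highest were Naaa, an acid amidase, at 36.3 and 42.5 CPM, and Ptgs2, cyclooxygenase-2, at 25.2 and 24.8 CPM. Among 3 fatty acid binding proteins that carry anandamide in the cell, Fabp5 stood at 52.5 and 57.5 CPM and Fabp3 at 40.4 and 42.5 CPM. Of the other receptors 3 were tested, the highest being the nuclear receptors Ppara (2.94 and 1.94 CPM) and Pparg (1.65 and 1.54 CPM). Counts of Cnr2 (the CB2 receptor), Gpr18, Trpv1, Hrasls5 and Alox15 were too low for the filter, and these 5 were singled out after their values were seen. Gpr119 was not analysed here.

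For each of the 8 genes, the genes most like it were sought among 11482 others with a mean of at least 5 CPM, by the Pearson correlation of log2 CPM over the 10 libraries after group means were taken off. Abhd12 was followed most closely by the ribosomal protein genes Rpl12 (0.990) and Rpl10a (0.985) and by Pdcd7 (0.98). Dagla was closest to Sbf1 (0.971), Slc8a2 (0.965), a sodium-calcium exchanger gene, and Rimbp2 (0.958), an active zone gene, and Daglb to Susd6, E2f3 and Arhgap4 (0.942 to 0.953). Cnr1 was closest to Nmrk1 (0.95), Xpnpep1 (0.933) and Nkrf (0.931), and Mgll to Kdm1a (0.962), Wfs1 (0.921), a marker of CA1 pyramidal cells, and Wdyhv1 (0.916). Faah was closest to Klhl26, Lztr1 and Gpr107 (0.932 to 0.958), Napepld to Sema3c, Cdkal1 and Nfib (0.903 to 0.923), and Abhd6 to Pop1, Grin2c and Eif4a1 (0.894 to 0.897). These are the highest of many correlations over few libraries that also share depth and transcript-length differences, and they are descriptions only.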

How the data were processed

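RNA was measured in 10 libraries of CA3, 5 per group, with groups and replicate numbers from the titles. The deposited files hold unnormalized read counts by gene; per the submitters' processing notes the authors used HISAT2, featureCounts and the mm10 build. Versions, settings, strandedness, annotation and row filters were not given there. Of 18453 rows, 18421 matched GENCODE M21 (GRCm38, the assembly of mm10), which gave symbols, coordinates, lengths and GC content.

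The main test was edgeR's (version 4.0.16, R 4.3.3; filterByExpr, TMM, robust quasi-likelihood test, Benjamini-Hochberg adjustment over all tested genes, called under 0.05); the standard error is the log2 fold change divided by the square root of F. CPM uses TMM-scaled totals and log2 CPM a prior count of 2. The 95% intervals use the degrees of freedom of the fit. At these depths the spread between libraries, not counting error, sets the precision; no libraries were duplicates (chi-square per degree of freedom 3.85 to 39.2 within groups).

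The 8 genes, the lists and the tests were chosen with earlier results of these data known. Named genes are Mef2c, the 8 genes, called genes of the other pathway lists or else the 2 with the highest CPM, and the 3 genes most like each of the 8. Alternatives were 2 normalizations (DESeq2 size factors, upper quartile), the DESeq2 1.42.0 Wald test, 2 filters, a replicate block, leaving out libraries, 1 surrogate variable (sva 3.50.0), marker scores (mean centred log2 CPM), other thresholds, and offsets for transcript length and GC content from natural splines with 5 degrees of freedom in each library. Covariates for GABAergic, cholecystokinin interneuron and CA3 markers were added after seeing the data. The fits were tested on simulated data. Start regions on chromosome 18 were left out of the motif search.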

Additional observations from a re-analysis of the deposited data

Results flagged for a closer look

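Mef2c in scramble library 4 stood at 312.0 CPM, far from the other 4 scramble libraries (166.3 to 197.7 CPM) by Dixon's test for groups of 5 samples. It was the 1 value singled out among 18 groups tested, the 8 endocannabinoid genes and Mef2c in both conditions, and chance alone gives about 1 in 20. None of the 8 endocannabinoid genes had such a library. Without this library and the one labelled knockdown 5, the Mef2c log2 fold change was -0.45 (SE 0.105). The 2 libraries were chosen for their Mef2c levels, so that fit is no test of Mef2c.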

How the results depend on the processing

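Depth limits none of the 8 genes, each with at least 518 counts in every library; limits are the 5 libraries per group, the difference in transcript length between genes called higher and lower, and the microglia and interferon markers that were highest in knockdown libraries 2, 3 and 4. Cnr1 kept its direction in all 25 alternatives and passed in 22. It did not pass with the length and GC correction (-0.209), the microglia score (-0.377) or without knockdown libraries 2, 3 and 4 (-0.356), the last of which leaves 2 knockdown libraries; without single libraries it ranged from -0.438 to -0.331. Abhd12 kept its direction in all 25 and passed in 15. It did not pass with 1 surrogate variable (0.246), the CA3 score (0.254), the correction (0.110), the microglia score (0.232), without knockdown libraries 2, 3 and 4 (0.225) or without scramble 4 and the library labelled knockdown 5 (0.240), and ranged from 0.251 to 0.327 without single libraries.

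Faah passed with the correction alone (0.240). Mgll passed with the GABAergic (0.201) and cortical (0.210) scores and ranged from 0.153 to 0.235 without single libraries, Dagla from 0.119 to 0.270. Abhd6 changed sign with 1 surrogate variable (-0.035), the GABAergic (-0.008), cortical (-0.020) and microglia (-0.095) scores, the correction (-0.068) and without knockdown libraries 2, 3 and 4 (-0.063), and ranged from -0.036 to 0.040 without single libraries; none of these passed. Napepld changed sign without knockdown libraries 2, 3 and 4 (-0.002), and Mef2c with the microglia score (0.139). Mef2c was -0.446 without scramble 4 and the library labelled knockdown 5, 2 libraries chosen for their Mef2c levels, and ranged from -0.642 to -0.139 without single libraries. Daglb kept its direction and did not pass in any of the 25 (-0.343 to -0.038).

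Of the 8 genes, 1 passed with 1 surrogate variable, the CA3 score, the correction and without scramble 4 and the library labelled knockdown 5. At an adjusted p of 0.01, with the microglia score, and without knockdown libraries 2, 3 and 4, 0 passed in edgeR. In these fits 4, 3 and 4 had an unadjusted p under 0.05, against 4327, 2834 and 2590 over all genes. In DESeq2 on all libraries 2 passed, against 2555 over all genes. Without single libraries 1 to 3 of the 8 genes passed. Over all genes 1766 passed. The count was 710 with 1 surrogate variable, 840, 3355, 2787 and 8 with the CA3, GABAergic, cortical and microglia scores, 237 with the correction, and 379 and 3106 at thresholds of 0.01 and 0.1. It was 1029 without scramble 4 and the library labelled knockdown 5, and 631 to 3305 without single libraries (lowest without scramble 2, highest without knockdown 1). Without knockdown libraries 2, 3 and 4 it was 0 in edgeR, with 2590 genes at an unadjusted p under 0.05. Where no construction shows it, the cause was not tested. The labels do not say whether libraries of the same number belong together. Correlations of their deviations ran from -0.114 to 0.403, and 2 of 10 libraries correlated best with their own number. So few values cannot settle whether the numbers pair libraries. With the replicate block 1313 genes passed, and Cnr1 (-0.388) and Abhd12 (0.273) kept their calls.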
